A study of Glycine max with 12 samples.

Results

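CHS7, CHS8, CHI1A, IFS1 and IFS2 encode enzymes of the branch that leads from the general phenylpropanoid pathway to the isoflavones, and their transcripts were followed in closed soybean flowers. The genes were chosen by name and identifier: CHS7 is GLYMA_01G228700, CHS8 is GLYMA_11G011500, CHI1A is GLYMA_20G241500, IFS1 is GLYMA_07G202300 and IFS2 is GLYMA_13G173500. These are 5 of the 55897 genes of the count table, and 4 of them had enough reads to be tested, IFS1 being the exception. The identifiers place them on chromosomes 1, 11, 20, 7 and 13, and the genes that RefSeq lists under these symbols lie on the same chromosomes. RefSeq also gives IFS2 as a synonym of the gene on chromosome 7 and IFS1 as a synonym of that on chromosome 13, so that these symbols may be exchanged in other sources.

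RNA was sequenced from whole, undissected flowers of cultivar Magellan, with 12 libraries in 4 treatments of 3 libraries each. Each library pooled 30 to 40 flowers of 8 to 10 plants, so that the spread within a treatment is a spread between pools. Plants combining water deficit and heat stress (WD + HS) received 30% of the water available for transpiration at a day temperature of 38°C. Heat stress (HS) plants were well watered at 38°C, water deficit (WD) plants received 30% of that water at 28°C, and control (CT) plants were well watered at 28°C. The treatments started at flowering and had lasted 10 d at sampling, so that the flowers had developed under them. All plants had been inoculated with Bradyrhizobium japonicum, the nodule symbiont of soybean. Each treatment occupied a single growth chamber, and chamber and treatment cannot be told apart.

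Chalcone synthase condenses a coumaroyl starter with malonyl units into a chalcone, the first committed step towards all flavonoids. Chalcone isomerase closes the chalcone into a flavanone. Isoflavone synthase, a cytochrome P450 found mainly in legumes, moves the aryl ring of the flavanone and so opens the isoflavonoid branch, which in soybean supplies daidzein and genistein, the signals to nodulating bacteria and the precursors of phytoalexins. In flowers the same chalcones and flavanones also feed the flavonols and anthocyanins, so that chalcone synthase and chalcone isomerase serve several products and isoflavone synthase serves the isoflavonoids alone.

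Library totals ran from 14049107 to 22415845 counted reads, and 38410 genes passed the filter on low counts and were tested. As a check of the tissue, 2 genes described as AGAMOUS-like 6 and AGAMOUS-like 8, which belong to the MADS-box genes of flower development, summed to 7.13 to 10.7 CPM (normalised read counts) in WD + HS libraries, 3.05 to 4.13 CPM in HS libraries, 11.7 to 17.9 CPM in WD libraries and 11.3 to 13.7 CPM in CT libraries. No gene at hand was described as leghemoglobin, the nodule marker. Descriptions were at hand for only 2464 of the 55897 genes, so this absence does not bear on the tissue. CPM are reads divided by the TMM-scaled library size, and genes whose p-value from the quasi-likelihood test of edgeR, adjusted by the Benjamini-Hochberg method over all genes tested, was under 0.05 were called changed. In whole flowers, fewer cells of a type and less RNA per cell cannot be told apart.

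Levels of different genes were compared in FPKM, the fragments of a gene scaled for transcript length and for depth. In CT flowers CHI1A had 60.3 ± 8.19 FPKM, CHS8 42.9 ± 3.77 FPKM and CHS7 24.6 ± 2.22 FPKM (SD, n = 3 each). IFS2, with 1.80 ± 0.262 FPKM in CT flowers (SD, n = 3), stood far below them. IFS1 was at 0.0310, 0.181 and 0.192 FPKM in the CT libraries. In terms of the whole transcriptome of CT flowers, 96.9% of genes had a lower mean FPKM than CHI1A, 95.4% lower than CHS8, 91.5% lower than CHS7, 49.6% lower than IFS2 and 29.0% lower than IFS1. The synthase and isomerase genes were therefore among the well expressed genes of the flower, whereas neither isoflavone synthase gene was. In CT flowers the FPKM of CHI1A was 33.6 ± 0.608 times that of IFS2 (SD, n = 3).

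The same order held under heat, but the levels lay closer together. CHI1A had 25.9 ± 4.84 FPKM in WD + HS, 28.0 ± 0.714 FPKM in HS, 55.4 ± 4.88 FPKM in WD and 60.3 ± 8.19 FPKM in CT (SD, n = 3 each). CHS8 had 23.2 ± 4.13 FPKM in WD + HS, 23.2 ± 4.09 FPKM in HS, 47.8 ± 8.31 FPKM in WD and 42.9 ± 3.77 FPKM in CT (SD, n = 3 each). CHI1A exceeded CHS8 in 3 of 3 libraries of WD + HS, HS and CT and in 2 of 3 libraries of WD, so that these neighbours were not separated within their spread in every treatment. CHS8 exceeded CHS7 in 3 of 3 libraries of WD + HS, WD and CT and in 2 of 3 HS libraries. The ratio of CHI1A to CHS7 was 1.26 ± 0.0836 in WD + HS, 1.38 ± 0.224 in HS, 1.86 ± 0.252 in WD and 2.47 ± 0.438 in CT, on the FPKM scale (SD, n = 3 each).

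**Figure D1:**
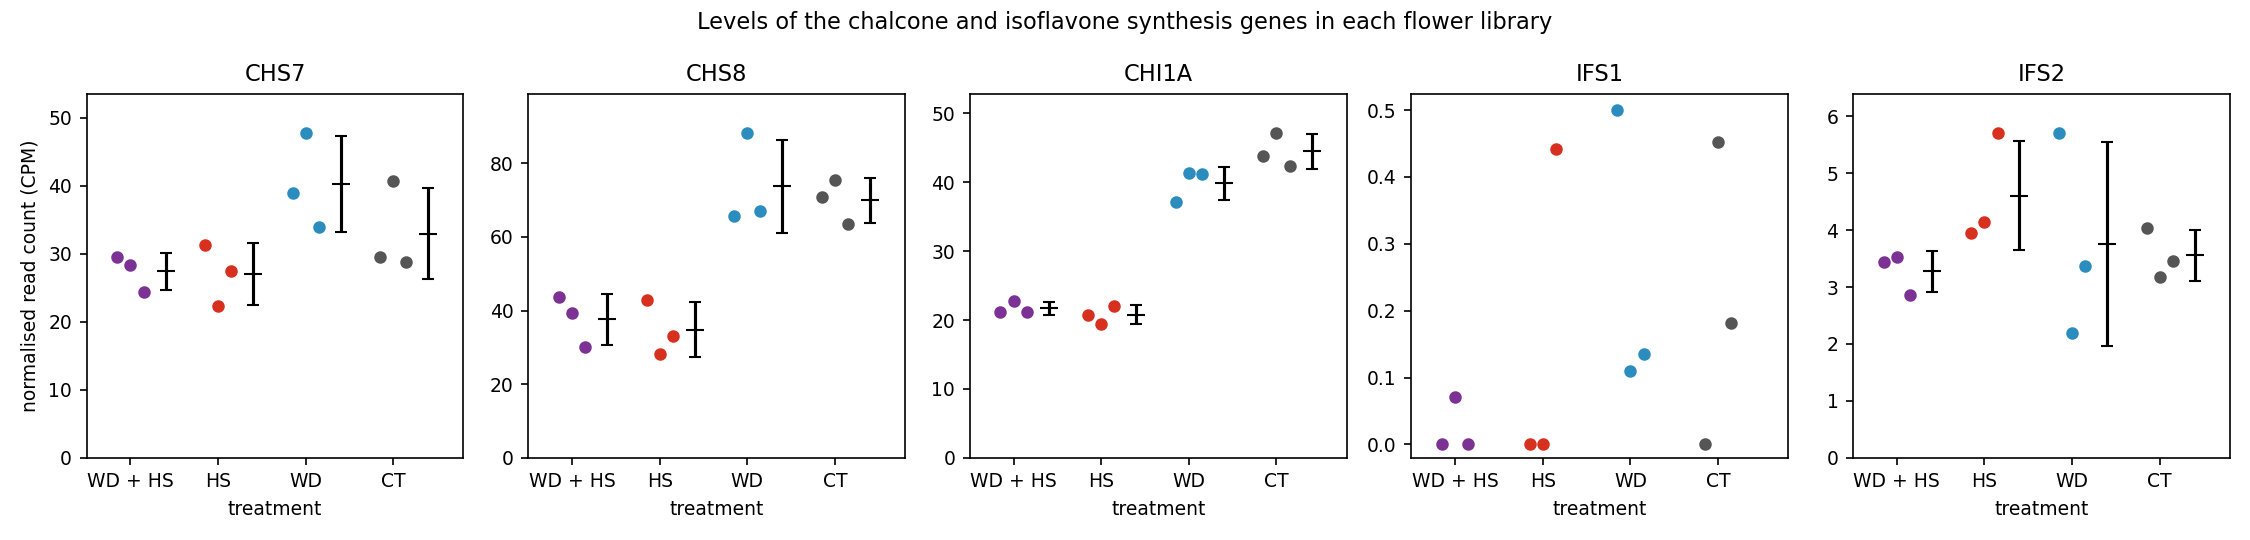
Normalised read count (CPM, vertical axis, a separate scale for each gene) of the 5 genes in each library of the 4 treatments; points are libraries, and the bar beside them is the mean ± SD (n = 3), left out for IFS1, whose libraries hold 0 to 10 reads. CHS8 and CHI1A lie lower in all 6 heated libraries than in all 6 libraries grown at 28°C, whereas the points of IFS2 overlap.

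CHS8, one of the 2 chalcone synthase genes studied, fell under heat, with and without water deficit. It had 43.7, 39.2 and 30.1 CPM in WD + HS libraries and 43.0, 28.3 and 33.2 CPM in HS libraries. It had 65.6, 88.3 and 67.2 CPM in WD libraries and 70.7, 75.5 and 63.5 CPM in CT libraries. Every heated library was below every library grown at 28°C, and WD overlapped CT. The log2 fold change of CHS8 against CT was -0.89 in WD + HS (SE 0.14, edgeR adjusted p = 5.36e-05) and -1.01 in HS (SE 0.14, edgeR adjusted p = 1.58e-05), a level of 0.538 and 0.497 times that of CT. Among the log2 fold changes of all genes tested, 10.4% were lower than that of CHS8 in WD + HS and 4.97% in HS.

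CHI1A, the chalcone isomerase gene, fell to a similar extent and, in CPM, with less spread between libraries. It had 21.1, 22.7 and 21.2 CPM in WD + HS libraries and 20.8, 19.5 and 22.1 CPM in HS libraries. It had 37.1, 41.3 and 41.2 CPM in WD libraries and 43.9, 47.2 and 42.4 CPM in CT libraries. In CPM the 6 heated libraries formed a narrow band far below the others, and all 3 WD libraries were slightly below all 3 CT libraries. In FPKM the heated libraries were also below the others but spread from 20.7 to 30.3, and WD (49.9 to 59.0) overlapped CT (51.4 to 67.6). Against CT the log2 fold change of CHI1A was -1.04 in WD + HS (SE 0.09, edgeR adjusted p = 2.86e-08) and -1.10 in HS (SE 0.09, edgeR adjusted p = 1.55e-08). Its level was 0.487 times that of CT in WD + HS and 0.467 times in HS, and 8.53% and 4.14% of genes tested had a lower log2 fold change in these comparisons.

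CHS7, the other chalcone synthase gene, differed less between treatments. It had 29.5, 28.3 and 24.3 CPM in WD + HS libraries and 31.3, 22.3 and 27.5 CPM in HS libraries. It had 38.8, 47.8 and 33.9 CPM in WD libraries and 29.5, 40.7 and 28.7 CPM in CT libraries. Heated and CT libraries overlapped, and all WD + HS libraries were below all WD libraries. The log2 fold change against CT was -0.27 in WD + HS (95% interval -0.58 to 0.03, edgeR adjusted p = 0.155) and -0.29 in HS (95% interval -0.60 to 0.01, edgeR adjusted p = 0.132). These intervals include 0 as well as falls of about 0.6 on the log2 scale, so the comparison does not show that CHS7 was unaffected. The CT replicate 2 library was the highest of CT in counts, but its FPKM of 26.0 was close to the 25.8 FPKM of CT replicate 3.

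The isoflavone synthase genes gave few reads. IFS2 had 3.43, 3.53 and 2.85 CPM in WD + HS libraries and 3.96, 4.14 and 5.70 CPM in HS libraries. It had 5.71, 2.20 and 3.37 CPM in WD libraries and 4.04, 3.17 and 3.45 CPM in CT libraries. These values rest on 40 to 116 reads a library, and both stress groups with heat overlapped CT. The log2 fold change of IFS2 against CT was -0.12 in WD + HS (95% interval -0.74 to 0.51, edgeR adjusted p = 0.797) and 0.38 in HS (95% interval -0.23 to 0.99, edgeR adjusted p = 0.349). A fall of IFS2 as large as those of CHS8 and CHI1A in HS lies outside its interval, and a rise of almost 1 on the log2 scale lies within it.

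IFS1 was counted with 0, 1 and 0 reads in WD + HS libraries, 0, 0 and 9 reads in HS libraries, 7, 2 and 2 reads in WD libraries and 0, 10 and 3 reads in CT libraries. HS and CT each held both a library at 0 and one of the largest counts, and the WD + HS libraries were below the WD libraries. A count of 0 allows up to 3 reads, which corresponds to 0.155 to 0.195 CPM in the libraries at 0. IFS1 was therefore at or near the limit of detection. The sum over 3 libraries was 1 read in WD + HS, 9 in HS, 11 in WD and 13 in CT. Fitted without the filter, among 47932 genes, IFS1 gave an edgeR adjusted p of 0.204 in WD + HS against CT, 0.833 in HS against CT and 0.206 in WD + HS against WD. In HS replicates 1 and 2 and CT replicate 1, IFS1 had a small FPKM (0.0291, 0.0536 and 0.0310) where the count was 0, so the tables do not assign the same reads to this gene.

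In total, 2 of the 4 genes tested were lower in WD + HS than in CT, against 19.1% of all genes tested, and 2 of 4 were lower in HS than in CT, against 16.0% of all genes tested. The median log2 fold change of the 4 genes was -0.58 in WD + HS and -0.65 in HS, and that of all genes tested was 0.01 in both. Both comparisons use the same CT libraries. The 2 AGAMOUS-like genes were also lower in HS, and AGAMOUS-like 8 in WD + HS as well: AGAMOUS-like 8 had a log2 fold change of -1.48 in WD + HS (edgeR adjusted p = 0.00805) and -1.91 in HS (edgeR adjusted p = 0.00149), and AGAMOUS-like 6 one of -0.23 in WD + HS (edgeR adjusted p = 0.381) and -1.76 in HS (edgeR adjusted p = 2.31e-06). Of 2 genes of green tissue, rubisco activase had a log2 fold change of 1.55 in WD + HS (edgeR adjusted p = 1.65e-06) and 1.91 in HS (edgeR adjusted p = 1.09e-07), and the summed level of rubisco activase and a rubisco small chain gene was 66.0 to 214 CPM in WD + HS, 154 to 191 CPM in HS, 113 to 176 CPM in WD and 46.7 to 151 CPM in CT. Most of this sum came from the small chain gene, GLYMA_19G046600, which was not called (log2 fold change 0.79 in WD + HS and 0.86 in HS, edgeR adjusted p = 0.12 and 0.10) and whose counts for each unit of FPKM varied 4.91-fold between libraries, with means of 813 FPKM in WD + HS, 813 FPKM in HS, 736 FPKM in WD and 757 FPKM in CT. The part of a changed make-up of the flower in the values of CHS8 and CHI1A was not tested.

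The effect of heat was measured a second time in libraries that the comparison of HS with CT did not use, namely WD + HS against WD. In that comparison CHS8 had a log2 fold change of -0.97 (SE 0.14, edgeR adjusted p = 2.87e-05) and CHI1A one of -0.88 (SE 0.09, edgeR adjusted p = 5.05e-07). CHS7 was lower as well, with a log2 fold change of -0.56 (SE 0.15, 95% interval -0.86 to -0.25, edgeR adjusted p = 0.00629). IFS2 was not called, with -0.19 (95% interval -0.82 to 0.44, edgeR adjusted p = 0.686). Thus 3 of the 4 genes tested were lower in WD + HS than in WD, against 16.4% of all genes tested. For CHS7, CHS8 and CHI1A all 3 WD + HS libraries were below all 3 WD libraries, a separation whose share over all genes is not given here. CHS7 passed the threshold under water deficit and not in well-watered plants, but the difference between these heat effects, which is the interaction of WD and HS, was -0.26 (95% interval -0.69 to 0.17, edgeR adjusted p = 0.665).

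**Figure D2:**
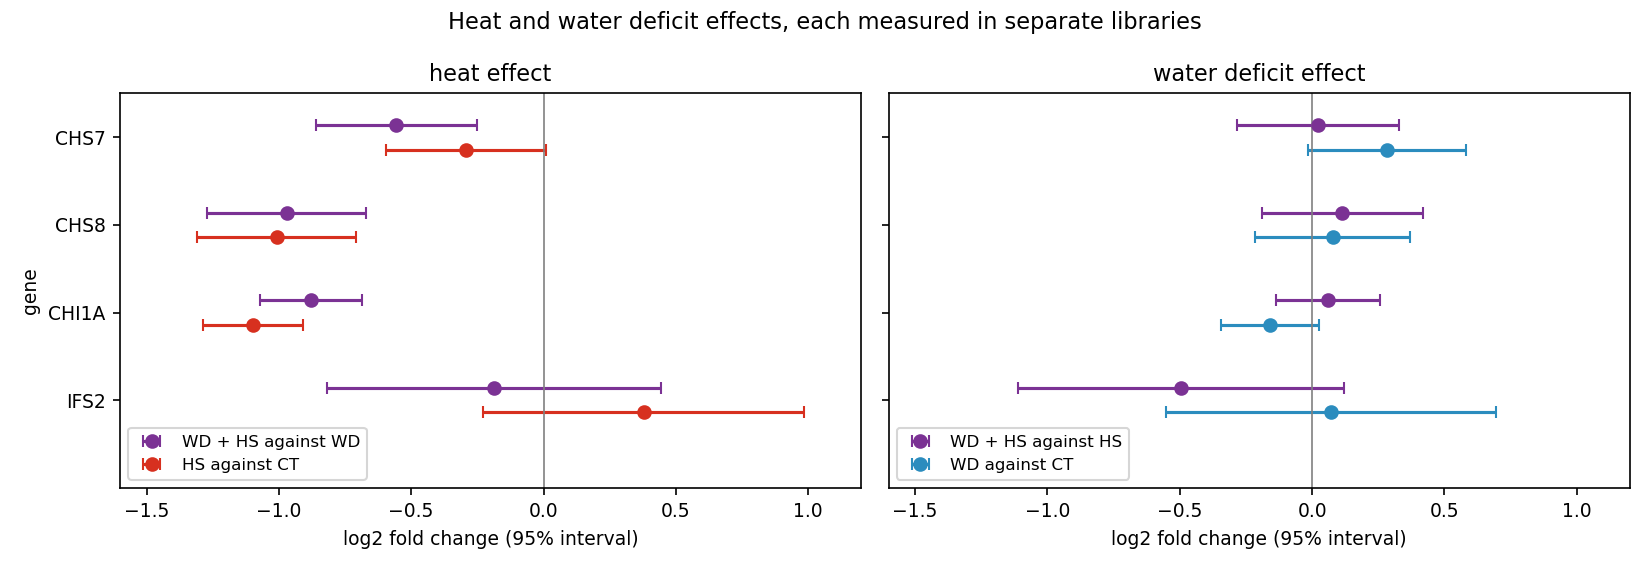
Log2 fold change (horizontal axis, with its 95% interval) of the 4 genes tested for heat (left panel) and water deficit (right panel), each measured in separate libraries: under the other stress (purple, upper point) and without it (red or blue, lower point). The intervals of CHS8 and CHI1A lie below 0 in both heat comparisons, and every interval for water deficit includes 0.

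Water deficit did not give a call for any of these genes, with or without heat. In WD against CT, 0 of 4 genes passed the edgeR test, against 1.62% of all genes tested in either direction. At such a share, 0 of 4 does not set the members apart. The count at an unadjusted p under 0.05 was also 0, without a share of all genes beside it. DESeq2 and limma-trend, fitted to the same libraries, called 0 as well. Among all genes tested DESeq2 called 1014 of 38410, and limma-trend 229 and 235 of 33763 at pseudocounts of 1 and 0.1. These further counts of 0 do not set the members apart either. The log2 fold changes were 0.28 for CHS7 (95% interval -0.02 to 0.58, adjusted p = 0.395), 0.08 for CHS8 (95% interval -0.21 to 0.37, adjusted p = 0.865), -0.16 for CHI1A (95% interval -0.34 to 0.03, adjusted p = 0.450) and 0.07 for IFS2 (95% interval -0.55 to 0.69, adjusted p = 0.951). For CHS8 and CHI1A, a change in WD as large as that in HS lies outside these intervals. For IFS2 the interval is wide and leaves room for changes of about 0.6 in either direction.

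Added to heat, water deficit likewise moved none of the genes past the threshold. In WD + HS against HS 0 of 4 were called, against 9.15% of all genes tested in either direction, which does not set the members apart. The count at an unadjusted p under 0.05 was 0 of 4, again without a share of all genes. DESeq2 and limma-trend, fitted to the same libraries, also called 0. These further counts of 0 do not set the members apart. The log2 fold change was 0.02 for CHS7 (95% interval -0.29 to 0.33), 0.11 for CHS8 (95% interval -0.19 to 0.42), 0.06 for CHI1A (95% interval -0.14 to 0.26) and -0.49 for IFS2 (95% interval -1.11 to 0.12, edgeR adjusted p = 0.372). All 3 WD + HS libraries had less IFS2 than all 3 HS libraries, although the test did not pass. The interaction of WD and HS was called for 0 of 4 genes, against 2.95% of all genes tested, which does not set the members apart either. The count was also 0 at an unadjusted p under 0.05 and in DESeq2 and limma-trend. For the interaction limma-trend called 605 and 701 of 33763 genes at pseudocounts of 1 and 0.1. These further counts of 0 do not set the members apart. Interaction values were 0.04 for CHS8 (95% interval -0.38 to 0.46), 0.22 for CHI1A (95% interval -0.05 to 0.49) and -0.57 for IFS2 (95% interval -1.44 to 0.31).

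The chalcone synthase pair did not keep its proportion. CHS8 gave 1.48, 1.38 and 1.24 reads for each read of CHS7 in WD + HS libraries, 1.37, 1.27 and 1.21 in HS libraries, 1.69, 1.85 and 1.98 in WD libraries and 2.40, 1.86 and 2.21 in CT libraries. All 6 heated libraries had a lower ratio than all 6 libraries grown at 28°C. The mean ratio was 1.37 ± 0.122 in WD + HS, 1.28 ± 0.0841 in HS, 1.84 ± 0.148 in WD and 2.16 ± 0.276 in CT (SD, n = 3 each). The log2 ratio differed between the 4 treatments in an exact permutation test over the 12 libraries (p = 0.00110, 0.00221 adjusted over the 2 gene pairs tested).

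Between single treatments, the difference in the log2 ratio of CHS8 to CHS7 was -0.65 in WD + HS against CT, -0.74 in HS against CT and -0.43 in WD + HS against WD. Each of these 3 comparisons gave p = 0.1 in a two-sided exact permutation test, which is the smallest p that 3 libraries against 3 can give, and an adjusted p of 0.25 over the 10 such comparisons made for the 2 gene pairs. WD and CT overlapped, with a difference of -0.22 on the log2 scale (exact p = 0.2), and so did WD + HS and HS, with 0.09 (exact p = 0.4). The ratio of the FPKM values showed the same separation at lower values, with 1.14 ± 0.0653 in WD + HS, 1.13 ± 0.130 in HS, 1.58 ± 0.111 in WD and 1.74 ± 0.144 in CT (SD, n = 3 each). The chalcone synthase genes of soybean are close copies, and how reads that match several of them were counted is not given in the sources used here. Within treatments the libraries high in CHS8 were also high in CHS7: over the 12 libraries, the deviations of their log2 CPM from the treatment means had a Pearson r of 0.84, as a description of libraries that share depth and scaling.

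**Figure D3:**
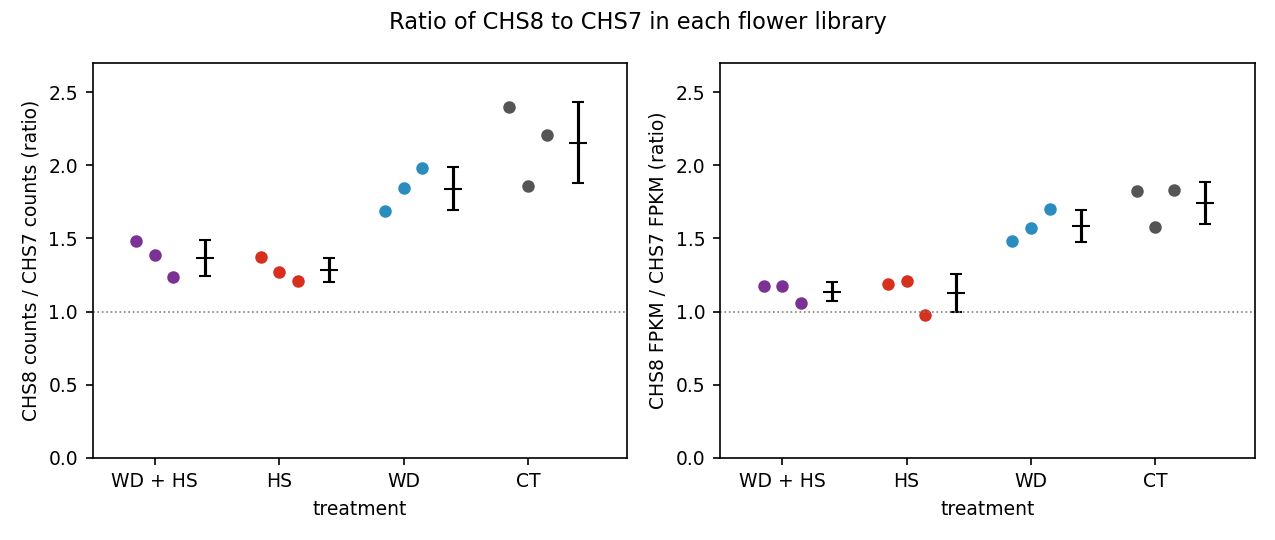
Ratio of CHS8 to CHS7 (vertical axis, no unit) in each library, from the counts on the left and from FPKM on the right. Points are libraries, the bars are mean ± SD (n = 3), and the dotted line marks a ratio of 1. Counts are not scaled for transcript length, so on the left this line does not mark equal levels. The heated libraries lie between 1.21 and 1.48 in counts, and the libraries grown at 28°C between 1.69 and 2.40.

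The isoflavone synthase pair could not be compared in the same way, because IFS1 had 0 reads in 5 of 12 libraries. IFS2 took 87.5% to 100% of the reads of the pair in every library. The exact permutation test of the log2 ratio of IFS2 to IFS1 over the 4 treatments gave p = 0.327, also 0.327 after adjustment over the 2 gene pairs, and it rests on the few IFS1 reads.

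**Figure D4:**
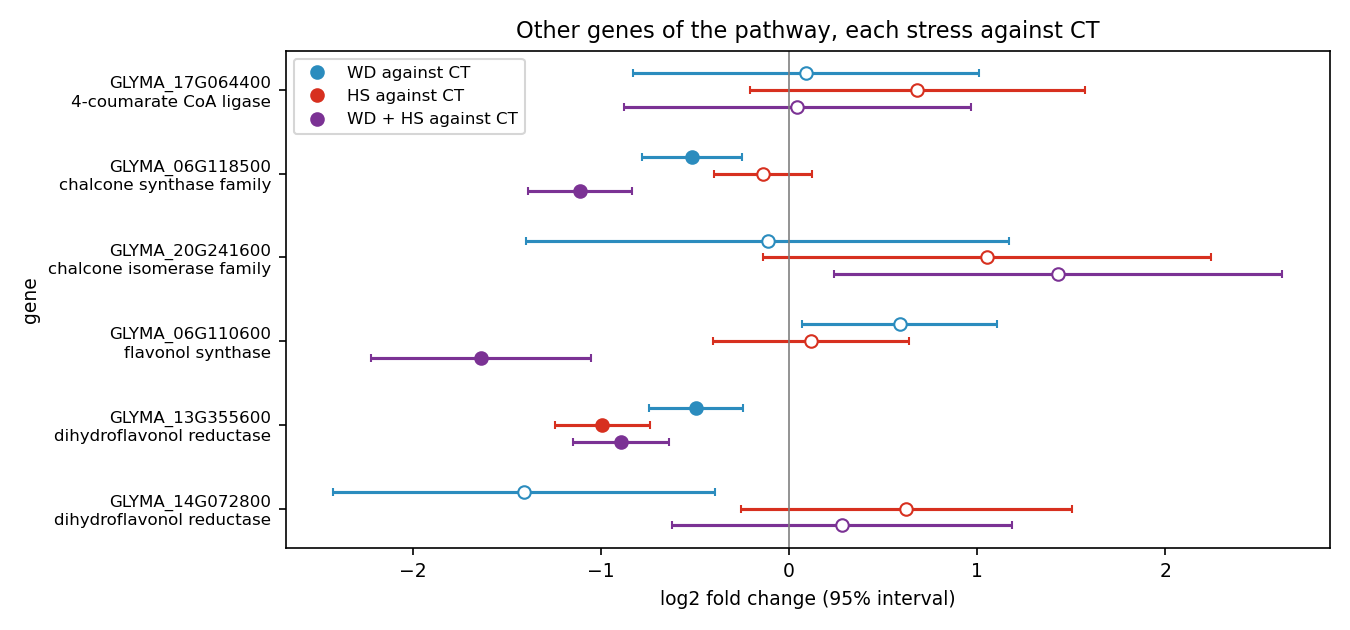
Log2 fold change against CT (horizontal axis, with its 95% interval) of the 6 other genes of the pathway that were tested, in WD (blue), HS (red) and WD + HS (purple); filled points passed the edgeR test at an adjusted p under 0.05. The flavonol synthase gene GLYMA_06G110600 and the chalcone synthase family gene GLYMA_06G118500 are called in WD + HS and not in HS. GLYMA_13G355600, labelled as a dihydroflavonol reductase but described as dihydroflavonol 4-reductase-like1, is called in all 3 stresses.

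Descriptions at hand named 9 other genes of the surrounding pathway, and 6 of them were tested. The study had listed these genes from the same libraries, and its lists were held only in part, so their counts are not independent evidence of a direction. Of the 6, 3 were lower in WD + HS than in CT, against 19.1% of all genes tested, 1 was lower in HS than in CT, against 16.0%, and 2 were lower in WD than in CT, against 0.682%. In WD + HS against HS, 2 were lower, against 5.94% of all genes tested. In WD + HS against WD, 3 were lower, against 16.4%, and 1 was higher, against 13.7%.

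The chalcone synthase family gene GLYMA_06G118500 passed the test against CT in WD + HS and WD, and not in HS. It had 15.5 ± 2.74 CPM in WD + HS, 30.4 ± 4.40 CPM in HS, 23.4 ± 3.06 CPM in WD and 33.5 ± 0.792 CPM in CT (SD, n = 3 each). Its log2 fold change against CT was -1.11 in WD + HS (edgeR adjusted p = 1.35e-06), -0.14 in HS (edgeR adjusted p = 0.423) and -0.52 in WD (edgeR adjusted p = 0.0421), and in WD + HS against HS it was -0.97 (edgeR adjusted p = 4.33e-05). Its interaction was not called, at -0.46 (edgeR adjusted p = 0.248). The call in WD was lost in 8 of 21 alternative analyses.

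Of the enzymes that take flavanone products away from the isoflavone branch, the flavonol synthase gene GLYMA_06G110600 passed the test against CT in WD + HS, and not in HS or WD. It had 6.60 ± 1.70 CPM in WD + HS, 22.1 ± 5.28 CPM in HS, 30.6 ± 14.4 CPM in WD and 20.4 ± 2.28 CPM in CT (SD, n = 3 each). Its log2 fold change against CT was -1.64 in WD + HS (edgeR adjusted p = 0.000106), 0.11 in HS (edgeR adjusted p = 0.770) and 0.59 in WD (edgeR adjusted p = 0.283), and its interaction of WD and HS was -2.34 (SE 0.38, edgeR adjusted p = 0.00125). The WD libraries had 14.6, 42.4 and 34.8 CPM, against 18.0, 20.6 and 22.6 CPM in CT libraries, and without WD replicate 1 the value in WD became 0.91 and was called (edgeR adjusted p = 0.00167). It was the 1 gene among the 6 with a called interaction, against 2.95% of all genes tested.

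Dihydroflavonol reductase opens the way to anthocyanins. GLYMA_13G355600 is described as dihydroflavonol 4-reductase-like1, and whether it acts in that step was not tested. This gene had 16.7 ± 1.63 CPM in WD + HS, 15.6 ± 1.44 CPM in HS, 22.0 ± 0.811 CPM in WD and 30.9 ± 4.96 CPM in CT (SD, n = 3 each). The log2 fold change against CT was -0.89 in WD + HS (edgeR adjusted p = 7.54e-06), -0.99 in HS (edgeR adjusted p = 2.27e-06) and -0.49 in WD (edgeR adjusted p = 0.0377), the last lost in 7 of 21 alternative analyses. GLYMA_14G072800, described as dihydroflavonol 4-reductase, was higher in WD + HS than in WD, by 1.69 (edgeR adjusted p = 0.0115), and was not called against CT by edgeR. On FPKM, limma-trend called it higher than CT in WD + HS (0.80 and 1.60 at pseudocounts of 1 and 0.1, adjusted p = 0.0379 and 0.0429) and in HS (0.85 and 1.69, adjusted p = 0.0318 and 0.0382). Its counts for each unit of FPKM varied 18.9-fold between libraries, more than for 99.96% of genes, so that its level depends on the table used.

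GLYMA_20G241600, a chalcone isomerase family gene listed in the count table directly beside CHI1A, had 2.26 ± 0.114 CPM in WD + HS, 1.74 ± 0.622 CPM in HS, 0.768 ± 0.828 CPM in WD and 0.820 ± 0.295 CPM in CT (SD, n = 3 each). Its log2 fold change against CT was 1.43 in WD + HS (edgeR adjusted p = 0.0552) and 1.05 in HS (edgeR adjusted p = 0.174), values of the opposite sign to those of CHI1A but not called by edgeR. The value in WD + HS passed in 6 of 18 alternative analyses, namely DESeq2 (adjusted p = 0.0290), edgeR without the filter (0.0349), edgeR on the compared libraries alone (0.0131), and edgeR without WD replicate 1, 2 or 3 (0.0164, 0.0488 and 0.0278). Its counts for each unit of FPKM varied 16.3-fold between libraries. The 4-coumarate CoA ligase gene GLYMA_17G064400, which acts before chalcone synthase, had log2 fold changes of 0.04 in WD + HS, 0.68 in HS and 0.09 in WD, none of them called by edgeR. The value in HS was called by limma-trend on FPKM (0.56 and 1.04 at pseudocounts of 1 and 0.1, adjusted p = 0.0195 and 0.0250) and by edgeR without CT replicate 3 (1.29, adjusted p = 0.0418). The 3 genes that were not tested, GLYMA_01G073600, GLYMA_08G110500 and GLYMA_15G018500, are described as 2 chalcone synthase family genes and 1 dihydroflavonol 4-reductase-like1 gene. For GLYMA_08G110500 the tables disagree in kind: it had 0 to 192 reads in single libraries, but a mean of 3.88 FPKM in WD + HS, 6.23 FPKM in HS, 8.57 FPKM in WD and 9.86 FPKM in CT.

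For the 4 members tested the count and FPKM tables were closer. The counts for each unit of FPKM varied 1.36-fold between libraries for CHS7, 1.33-fold for CHS8, 1.63-fold for CHI1A and 1.76-fold for IFS2, against a median of 1.37-fold over 28585 genes.

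The genes whose log2 levels followed each member most closely over the 12 libraries were sought among genes averaging 5 CPM or more. CHI1A was followed by GLYMA_02G009600 (Pearson r = 0.994), GLYMA_10G010200 (0.992) and GLYMA_11G080700 (0.991). CHS8 was followed by GLYMA_14G092100, GLYMA_08G223300 and GLYMA_01G214200 (0.981, 0.980 and 0.979), and CHS7 by GLYMA_09G152000, GLYMA_11G098000 and GLYMA_20G015400 (0.951, 0.922 and 0.916). IFS2 had no gene as close, its nearest being GLYMA_07G040400, GLYMA_05G051700 and GLYMA_08G106000 (0.869, 0.849 and 0.848). These are descriptions over libraries that share treatments and depth, and no description of these genes was at hand. IFS2 rests on 40 to 116 reads a library and had no called treatment effect, and the part of either in its lower r was not tested. Between the members themselves, r was 0.93 for CHS8 and CHI1A, 0.85 for CHS7 and CHS8, 0.68 for CHS7 and CHI1A, and -0.22 to -0.30 for IFS2 with the other 3. These values include the differences between treatments that the genes share. For deviations from the treatment means, r was 0.45 for CHS8 and CHI1A, 0.84 for CHS7 and CHS8, and 0.54 for CHS7 and CHI1A. With IFS2 it was -0.28 to -0.33.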

How the data were processed

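The authors trimmed and checked the reads, aligned them with HISAT2 2.2.1 (version from the submitters' processing notes) to the Ensembl Plants soybean genome, and deposited unnormalised counts, 1 value a gene and library; the counting program and its treatment of reads matching several genes are not given in the sources used here. The authors also deposited FPKM values, made with Cufflinks. Their Cuffdiff test needs alignments and was not repeated.

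Here the counts were filtered by filterByExpr (minimum count 10), scaled by TMM factors and tested by quasi-likelihood with edgeR 4.0.16 (R 4.3.3), all 4 groups in 1 fit with no block, and p-values were adjusted by Benjamini-Hochberg over 38410 genes. No minimum fold change was set. SE is the size of the log2 fold change over the root of the F statistic. Gene pairs were compared by log2 of the ratio of counts, with 0.5 added to each, in exact permutation tests. Intervals of 95% come from the fit. Limits from a count of 0 cover counting error only.

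The genes, lists and tests were chosen with earlier results of these data known. Named genes were the members, the pathway genes described in the study's lists or in RefSeq (Glycine max, no identifier of which matched), and for each member the 3 genes with the highest Pearson r of log2(CPM + 0.5) over the 12 libraries; the words searched for in the descriptions were set once the files were at hand. The pairwise tests of the ratios were also added then. A search of promoters was not run, since no sequences were used here. Scripts were tested on simulated data; the edgeR step missed its first criterion, on the share of changed genes called, and was then judged on recovered medians and false calls. Alternatives were DESeq2 1.42.0, 2 other scalings, 2 other filters, the replicate number as a block, limma 3.58.1 in its trend form on log2 FPKM with a pseudocount of 1 or 0.1 for genes at 1 FPKM or more in 3 libraries, only the groups compared, and each library left out. A log2(FPKM + pseudocount) scale understates changes of low genes. For the ratios, 1 added to each count and the ratio of FPKM, with 0.01 added after IFS1 was seen at 0, were tried.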

Additional observations from a re-analysis of the deposited data

Results flagged for a closer look

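The effect of water deficit on GLYMA_06G110600, described as flavonol synthase 1, differed with temperature. The interaction of WD and HS was -2.34 on the log2 scale (SE 0.38, edgeR's quasi-likelihood test, adjusted p = 0.00125): water deficit went with a log2 fold change of -1.75 in heated flowers (WD + HS against HS, edgeR adjusted p = 0.000229) and of 0.59 at 28°C (WD against CT, edgeR adjusted p = 0.283). All 3 WD + HS libraries were below all 3 HS libraries, whereas WD and CT overlapped through WD replicate 1, at 14.6 CPM in WD against 18.0 to 22.6 CPM in CT. Without that library the value in WD against CT was 0.91 (edgeR adjusted p = 0.00167). The gene was among those the study had listed from these libraries.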

How the results depend on the processing

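The calls of CHS7, CHS8, CHI1A and IFS2, and the counts of 2 members changed in HS against CT, 2 in WD + HS against CT, 3 in WD + HS against WD and 0 in the other comparisons, were the same in all 21 alternatives (20 for the interaction, which needs all 4 groups). The replicate numbers did not pair the libraries: over 18 pairs with the same number, the correlation of deviations ran from -0.23 to 0.14. With the number as a block, 578 genes were called in WD against CT, the call of GLYMA_06G118500 there was lost (adjusted p = 0.0583), and no other call changed among the members, or among the 6 pathway genes against CT. The number of genes called in WD against CT, 622, became 1014 with DESeq2, 1016 without the filter, 229 with limma-trend on FPKM at a pseudocount of 1 and 235 at one of 0.1, 224 with the compared libraries alone, and 266 to 1240 with a library left out (266 without CT replicate 2, 291 without CT replicate 1, 366 without WD replicate 3 and 1240 without WD replicate 1). The 1132 genes of the interaction became 605 and 701 with the 2 limma-trend fits. Values near 0 changed sign without being called. In WD + HS against HS, CHS7 gave -0.0153 on library size without factors and -0.0168 and -0.0173 with limma-trend, and CHI1A gave -0.13 with both. In the interaction, limma-trend gave -0.14 and -0.15 for CHS8 and -0.0125 and -0.0157 for CHI1A. In WD against CT, GLYMA_14G072800 gave 0.0494 with limma-trend on log2(FPKM + 0.1). The causes were not tested. With a library left out, the range in WD against CT was -0.0759 to 0.145 for CHS8, -0.37 to 0.36 for IFS2, -0.23 to 0.69 for GLYMA_17G064400 and -1.31 to 0.38 for GLYMA_20G241600. In WD + HS against HS it was -0.10 to 0.14 for CHS7 and -0.0138 to 0.29 for CHS8, in WD + HS against WD -0.47 to 0.25 for IFS2, and in the interaction -0.0913 to 0.21 for CHS8. In HS against CT it was -0.0679 to 0.28 for GLYMA_06G110600, and in WD + HS against CT -0.25 to 0.64 for GLYMA_17G064400. The ratio of CHS8 to CHS7 passed in all 14 of its alternatives. The few reads of IFS1 limit what can be said of it.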
